A study of Mus musculus with 6 samples.

Results

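The cerebellins, their neurexin partners and a delta glutamate receptor were followed across 6 RNA-seq libraries of cultured mouse cerebellar granule neurons (CGNs). The members are 7 genes chosen by symbol, Cbln1, Cbln2, Cbln3, Cbln4, Nrxn2, Nrxn3 and Grid1, out of 55341 genes in the deposited count tables. All 7 have a row in every table, and 5 of them (Cbln1, Cbln3, Cbln4, Nrxn3 and Grid1) held enough counts to be tested. Cbln2 and Nrxn2 did not pass the filter on low counts and are given by their counts only.

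Cerebellins are secreted proteins of the C1q family that sit in the synaptic cleft. At the parallel fiber synapse of the cerebellum, Cbln1 released by CGNs binds neurexins on the axon and delta receptors on the Purkinje cell dendrite, and so holds the synapse together. Cbln3 is a granule neuron cerebellin that leaves the cell in complexes with Cbln1, while Cbln2, Cbln4 and the delta receptor Grid1 are better known from other brain regions.

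CGNs had been prepared from cerebella of CD1-IGS mice dissected at P6 to P8, litters being pooled for each biological replicate, and AraC was given to all cultures against dividing cells. The control group (n = 3 libraries) received DMSO, the vehicle, and the treated group (n = 3 libraries) received GSK-126, an inhibitor of the H3K27 methyltransferase EZH2. Both were added at DIV3 (day in vitro 3) and RNA was collected at DIV5. The labels name only cerebellar tissue and the day of treatment, and the comparison asks what blocking H3K27 methylation does to RNA levels in postmitotic CGNs.

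Counts on genes ranged from 7407189 to 13092763 per library. Markers of CGNs were abundant: all 8 on the granule neuron list had counts, summing to between 2695 and 5348 CPM (counts scaled to library size, with TMM factors). Markers of other cells were abundant too, with 2016 to 7117 CPM for 6 astroglial genes and 4681 to 7069 CPM for 6 fibroblast or vascular genes. Most of the latter sum was collagen RNA, with means of 2970 CPM for Col1a1 and 2242 CPM for Col1a2 in DMSO. The vascular markers Pecam1 and Cldn5 were near the floor there, at 1.48 and 0.124 CPM. The Purkinje cell list summed to between 43.1 and 66.6 CPM, with Skor2 at 0 counts. Replicate 2 of both groups stood apart from the other libraries on the main principal component, and it had the most granule neuron and the least astroglial marker RNA of its group.

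The 4 cerebellins share much of their sequence, so it was checked whether they can be told apart. In GENCODE M21 the coding sequences of Cbln1 and Cbln3 were identical at 67.4% of 567 aligned bases, and those of Cbln1 and Cbln4 at 70.4% of 570. The most alike pairs were Cbln1 and Cbln2, at 75.1% of 579, and Cbln2 and Cbln4, at 73.8% of 588. The longest run shared by any cerebellin pair in their transcripts was 21 bases. Of the ungapped 60-base stretches of coding sequence that start on a codon, the one below is where Cbln1, Cbln3 and Cbln4 are most alike. It is written 5′ to 3′ with the 38 bases common to all 3 genes in capitals. It covers coding bases 328 to 387 of Cbln1, 340 to 399 of Cbln3 and 343 to 402 of Cbln4.
Cbln1: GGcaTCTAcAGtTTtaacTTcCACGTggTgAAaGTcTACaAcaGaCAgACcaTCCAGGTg
Cbln3: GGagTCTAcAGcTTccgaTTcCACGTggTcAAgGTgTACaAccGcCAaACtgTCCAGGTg
Cbln4: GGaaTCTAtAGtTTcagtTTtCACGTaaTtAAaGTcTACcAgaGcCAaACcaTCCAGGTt
The other 22 bases differ in at least 1 of the genes, and 15 of them are the last base of a codon.

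Among the cerebellins, Cbln3 had the largest fold difference between the groups of those tested. Cbln3 (ENSMUSG00000040380.14, GRCm38 chr14:55878913-55884392, minus strand) had 83.6, 226 and 88.7 CPM in DMSO replicates 1, 2 and 3. It had 47.4, 113 and 48.6 CPM in GSK-126 replicates 1, 2 and 3. Every treated library was below its numbered partner, but the treated replicate 2 lay above DMSO replicates 1 and 3, so the groups overlap. The control libraries averaged 133 ± 80.7 CPM and the treated libraries 69.8 ± 37.7 CPM (SD, n = 3 per group). Without pairing, the log2 fold change was -0.93 (standard error 0.47) and did not pass edgeR's test (adjusted p = 0.953). That value was -0.30 when DMSO replicate 2 was left out and -1.45 when GSK-126 replicate 2 was. With the replicate number as a block it was -0.90 (standard error 0.083), an expression of 0.537 times the control, with an edgeR adjusted p of 7.16e-07. The 3 pairs gave log2 differences of -0.82, -0.99 and -0.87. In the same pairs the summed granule neuron markers differed by -0.32, -0.38 and -0.40. In bulk RNA, fewer cells of a type and less RNA per cell cannot be told apart, here and for the genes that follow.

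Cbln1, the most abundant member, differed less. Cbln1 (ENSMUSG00000031654.16, GRCm38 chr8:87468405-87472609, minus strand) had 753, 1280 and 799 CPM in DMSO replicates 1, 2 and 3. It had 549, 1068 and 594 CPM in GSK-126 replicates 1, 2 and 3. Each treated library was again below its partner and the groups overlapped, replicate 2 being the highest in both. The control libraries averaged 944 ± 292 CPM and the treated libraries 737 ± 287 CPM (SD, n = 3 per group). The log2 fold change was -0.36 (standard error 0.31, edgeR adjusted p = 0.953) without the block, -0.071 when DMSO replicate 2 was left out and -0.70 when GSK-126 replicate 2 was. With it the value was -0.38 (standard error 0.069, edgeR adjusted p = 0.00113), a decrease of 23.2% seen as -0.46, -0.26 and -0.43 in the 3 pairs.

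Nrxn3 was the neurexin member that could be measured. Neurexins are presynaptic adhesion proteins, and Nrxn3 (ENSMUSG00000066392.11, GRCm38 chr12:88722876-90334935, plus strand) is spliced into many forms. It had 115, 273 and 128 CPM in DMSO replicates 1, 2 and 3. It had 73.2, 119 and 93.1 CPM in GSK-126 replicates 1, 2 and 3. The treated replicate 2 overlapped the lowest control, and all pairs were lower with GSK-126. The control libraries averaged 172 ± 87.5 CPM and the treated libraries 95.3 ± 23.2 CPM (SD, n = 3 per group). Without the block the log2 fold change was -0.86 (standard error 0.34, edgeR adjusted p = 0.953), and -0.35 when DMSO replicate 2 was left out. With the block it was -0.78 (standard error 0.10, edgeR adjusted p = 5.86e-05). The pairs gave -0.66, -1.19 and -0.46, so the size varied more between pairs than for Cbln3, and without replicate 2 the blocked value was -0.56 (edgeR adjusted p = 0.00173). The exons of Nrxn3 overlap those of the antisense gene Gm37980 over 439 bases, and whether the counting used strand is not given in the sources used here.

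So 3 of the 5 tested members, Cbln1, Cbln3 and Nrxn3, were called lower with the block, where 5.09% of all 16729 tested genes were. Without the block none of the members was called, nor any other gene (0% of 16729 in either direction). Before adjustment, the edgeR quasi-likelihood test without the block put 369 lower genes (2.21%) and 296 higher genes (1.77%) under 0.05, Nrxn3 among the lower ones. DESeq2 without the block called 2 genes lower (0.0142%) and 19 higher (0.135%), none of them a member. DESeq2 with the block, which called 4.87% of its 12332 genes lower, also called Cbln1, Cbln3 and Nrxn3, with adjusted p of 6.32e-06, 7.3e-14 and 1.83e-07. In the edgeR fit with the block, 1.12% of tested genes had a log2 fold change below that of Cbln3 and 1.76% one below that of Nrxn3. The 5 tested members each had overlapping groups, whereas 9.44% of tested genes did not overlap. Cbln1, Cbln3, Nrxn3 and Grid1 were lower in all 3 pairs, as were 22.8% of tested genes.

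**Figure D1:**
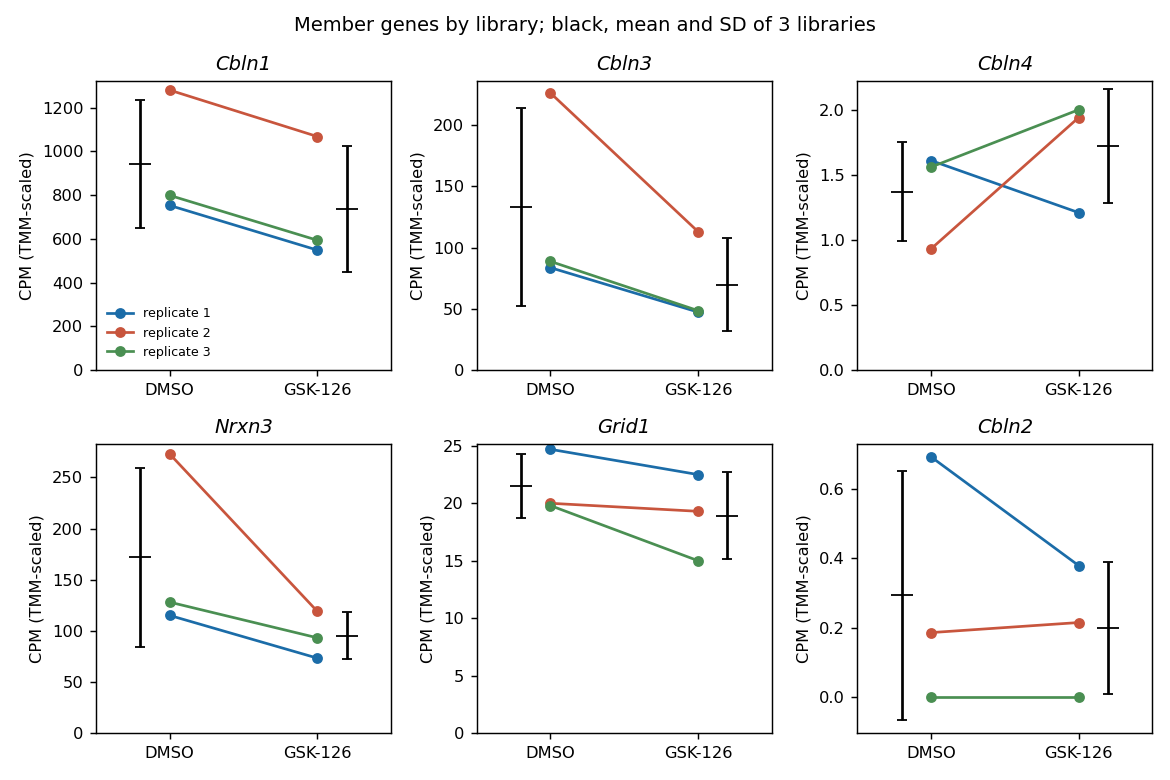
Level of 6 members in each library, in TMM-scaled CPM on axes that start at or just under 0, with a line joining libraries of the same replicate number and black marks for the mean and SD of 3 libraries. Every line falls for Cbln1, Cbln3, Nrxn3 and Grid1, replicate 2 lies highest for Cbln1, Cbln3 and Nrxn3, and the lines of Cbln4 and Cbln2 run in different directions.

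Grid1, Cbln4 and Cbln2 were low. Grid1 (ENSMUSG00000041078.7, GRCm38 chr14:34820108-35583379, plus strand), the delta receptor that also binds cerebellins across the cleft, had 24.7, 20 and 19.8 CPM in the controls and 22.5, 19.3 and 15 CPM in the treated libraries. The groups overlap and the pairs gave -0.13, -0.056 and -0.41. Its log2 fold change was -0.18 (standard error 0.20, edgeR adjusted p = 0.955), and with the block -0.19 (standard error 0.14, edgeR adjusted p = 0.479).

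Cbln4 (ENSMUSG00000067578.3, GRCm38 chr2:172036233-172043466, minus strand) had 14, 10 and 18 counts with DMSO and 16, 18 and 15 counts with GSK-126. In CPM these were 1.37 ± 0.38 and 1.72 ± 0.439 (SD, n = 3 each), with overlapping groups. Its log2 fold change was 0.31 (standard error 0.43, edgeR adjusted p = 0.961), with pairs of -0.41, 1.06 and 0.36. At 91 counts in all, a difference of the size seen for Cbln1 was not detectable at this depth. Cbln2 (ENSMUSG00000024647.14, GRCm38 chr18:86711110-86718283, plus strand) had 6, 2 and 0 counts with DMSO and 5, 2 and 0 counts with GSK-126. No fold is given for it, since the replicates of a group span most of its range.

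Nrxn2 (ENSMUSG00000033768.17, GRCm38 chr19:6418731-6544169, plus strand) is listed at 0 in 5 libraries and at 1 count in DMSO replicate 2. That value is no measure of Nrxn2 expression. Nrxn2 lies in a run of 13 consecutive protein-coding genes, from Majin to Slc22a12 over 360 kb, that each held at most 1 count in the 61106099 counts of the 6 libraries. The run includes Sf1, a splicing factor, and Men1, a component of histone methyltransferase complexes, which most cells express. The genes on its flanks were counted, Batf2 with 347 and Rps6ka4 with 1425 counts. In GENCODE M21 the exons of Nrxn2 overlap those of other genes over only 682 bases (Slc22a12) and 207 bases (Gm14964) of 13812. The cause of the run was not tested, and no level, fold or ratio is given for Nrxn2.

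**Figure D2:**
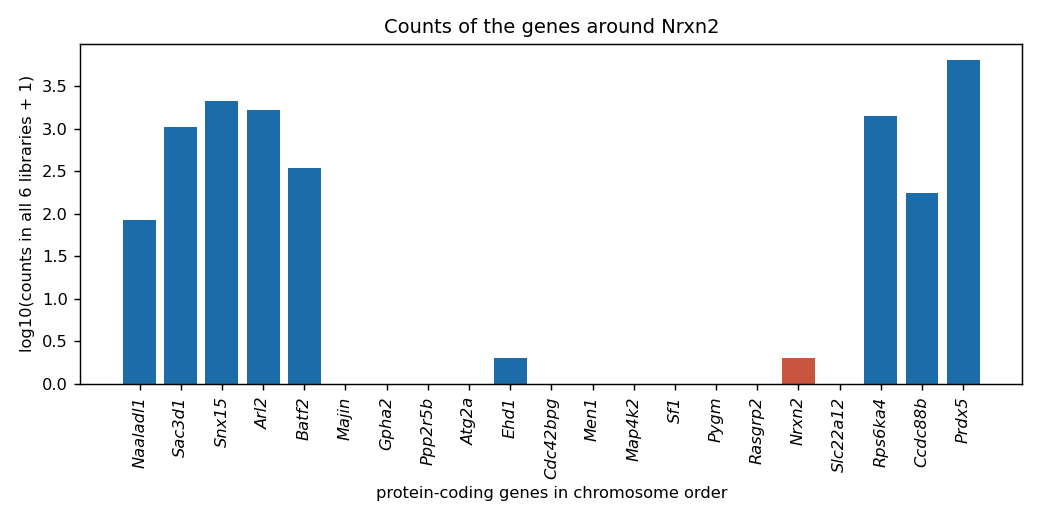
Counts summed over the 6 libraries, as log10 of counts plus 1, for protein-coding genes placed in chromosome order around Nrxn2 (red bar). The 13 genes from Majin to Slc22a12 have no bar or a bar of 1 count, between Batf2 with 347 and Rps6ka4 with 1425 counts.

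Levels of different genes were compared per kilobase of exon, averaged over the 6 libraries with the SD. Cbln1 led with 277 ± 93.1 CPM per kb, 13.3 times the level of Cbln3, and its libraries did not overlap those of any other member. These values pool both groups. With DMSO, Cbln1 had 311 ± 96.1 and Cbln3 27.3 ± 16.6 CPM per kb, and with GSK-126 they had 243 ± 94.6 and 14.3 ± 7.76. Both lengths used for Cbln3 were 4866 bases, so its level per kb rests on a single length. Cbln3 had 20.8 ± 13.6 CPM per kb and Nrxn3 10.6 ± 5.64. Grid1 followed with 3.39 ± 0.551 CPM per kb, Cbln4 with 0.532 ± 0.143 and Cbln2 with 0.0848 ± 0.0904. The ranges of Cbln3 and Nrxn3 overlapped, although Cbln3 was above Nrxn3 in each of the 6 libraries, and no other neighbours in this order overlapped. With the length of the longest transcript in place of all exons the order of the 6 means was the same, with Nrxn3 at 16.9 CPM per kb, but in GSK-126 replicate 3 Nrxn3 (11.8 CPM per kb) was above Cbln3 (9.99 CPM per kb).

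**Figure D3:**
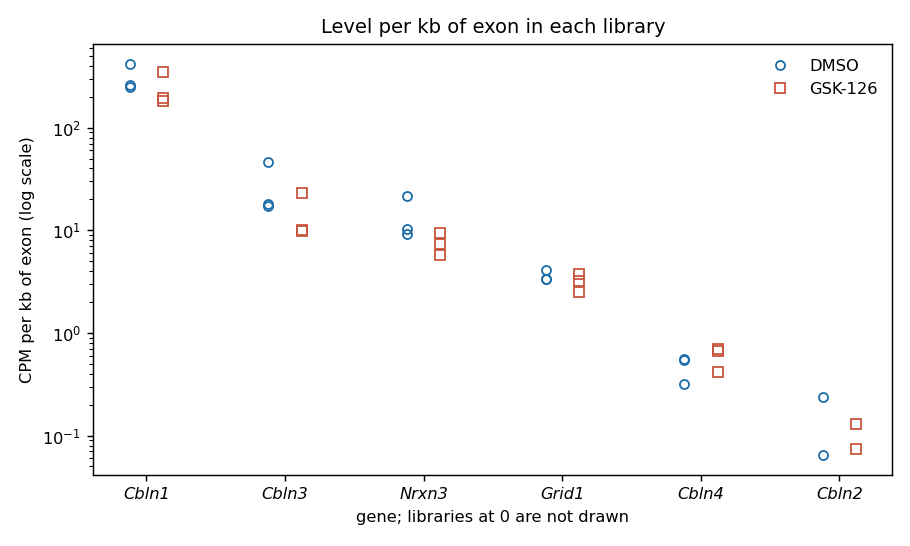
TMM-scaled CPM per kilobase of exon on a log axis for 6 members, with a circle for each DMSO and a square for each GSK-126 library. Cbln1 lies between 181 and 421 in all libraries, Grid1 between 2.51 and 4.14, and the libraries of Cbln2 at 0 are not drawn.

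Ratios of counts within a library do not depend on library scaling. Cbln3 counts were 11.1%, 17.6% and 11.1% of Cbln1 counts in DMSO replicates 1, 2 and 3. They were 8.65%, 10.6% and 8.18% in GSK-126 replicates 1, 2 and 3. Every treated library was below every control, the closest being GSK-126 replicate 2 (10.6%) and DMSO replicates 1 and 3 (11.1%). How often ratios of other gene pairs separate in this way was not tested. The log2 ratio differed by -0.51, with pairs of -0.36, -0.73 and -0.44 (p = 0.1 in a two-sided exact permutation test, which cannot go lower with 3 libraries a group). Without DMSO replicate 2 the difference was -0.29.

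The Cbln4 to Cbln1 ratio differed by 0.71 on the log2 scale with overlapping groups (p = 0.4, two-sided exact permutation test), and by 0.22 without DMSO replicate 2. In both ratios no p was below 0.1, so neither was past 0.05 before or after adjustment.

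**Figure D4:**
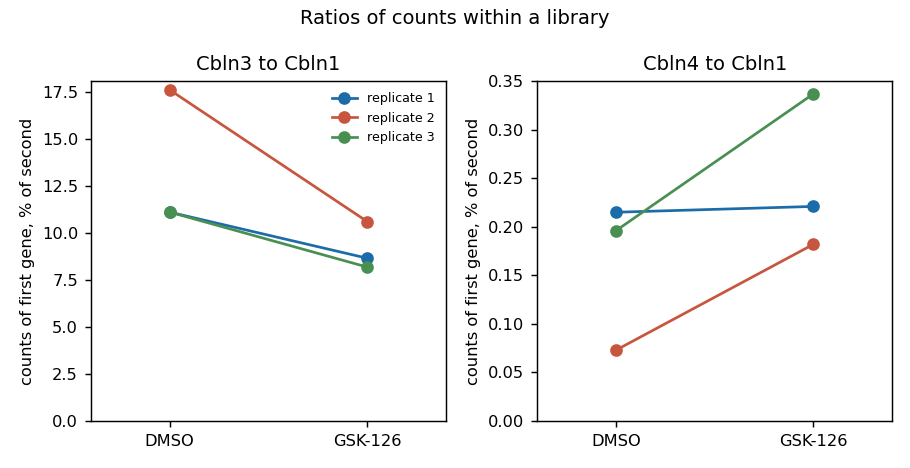
Counts of one gene as a percentage of another in each library, with lines joining libraries of the same replicate number and axes starting at 0. Cbln3 to Cbln1 is lower in all treated libraries than in any control, and Cbln4 to Cbln1 lies between 0.0729% and 0.337% with overlapping groups.

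Granule neuron markers moved with these genes. The 8 markers summed to 3356, 5348 and 3848 CPM in DMSO replicates 1, 2 and 3 and to 2695, 4117 and 2924 CPM in GSK-126 replicates 1, 2 and 3. Each treated library was lower than its partner, and the groups overlapped. With the block 5 of the 8 were called lower, against 5.09% of all tested genes: Neurod1 (-0.47), Zic1 (-0.31), Etv1 (-1.17), Rbfox3 (-0.59) and Gabra6 (-1.19, the GABA receptor subunit of mature CGNs). Zic2 (-0.20, edgeR adjusted p = 0.0799), Cntn2 (-0.12, 0.338) and Pax6 (-0.07, 0.643) were not called.

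Counts of the members were therefore also divided by the summed counts of the 8 markers in the same library, a choice made after the data were seen. This sum includes the 5 markers called lower with the block, and its most abundant gene is Zic1 (mean of 1558 CPM with DMSO). A value on this scale therefore depends on which markers are summed, and is no measure of RNA per CGN. On this scale Cbln1 differed by -0.018 on the log2 scale, with pairs of -0.14, 0.12 and -0.031 and overlapping groups. Cbln3 differed by -0.53, with pairs of -0.50, -0.62 and -0.47 (p = 0.3, two-sided exact permutation test). Nrxn3 differed by -0.41, with pairs of -0.34, -0.82 and -0.064 (p = 0.1, two-sided exact permutation test, the lowest it can give). Its groups did not overlap on this scale, although they did in CPM. The share of all tested genes that separate on this scale was not computed. Grid1 differed by 0.17, with pairs of 0.18, 0.32 and -0.0095.

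Markers of other cells also moved with the treatment. The 6 interneuron markers summed to 222, 203 and 233 CPM in DMSO replicates 1, 2 and 3 and to 189, 151 and 157 CPM in GSK-126 replicates 1, 2 and 3. This sum was lower in every pair and the groups did not overlap, and with the block 3 of 6 were called lower (Gad1, Gad2 and Slc32a1), against 5.09% of all tested genes. The microglial sum was higher in every pair (403 to 497, 187 to 266 and 316 to 373 CPM from DMSO to GSK-126), although the groups overlapped. The oligodendroglial sum was likewise higher in every pair (721 to 726, 395 to 464 and 567 to 647 CPM), with overlapping groups. So was the fibroblast or vascular sum (4681 to 5949, 5462 to 5803 and 6484 to 7069 CPM), again with overlap. The astroglial sum went from 6721 to 7117, from 2091 to 2016 and from 3722 to 3705 CPM, with no common sign. Called higher with the block were 2 of 6 astroglial genes (S100b and Gdf10) and 1 of 6 oligodendroglial (Mbp), against 3.35% of all tested genes. So were 2 of 6 microglial genes (C1qa and C1qb) and 2 of 5 tested fibroblast or vascular genes (Col1a2 and Pdgfrb). The more abundant astroglial genes Gfap (0.15), Aldh1l1 (0.21), Aqp4 (-0.15) and Slc1a3 (-0.13) were not called. No gene of the Purkinje or progenitor lists was called, and 1 of the unipolar brush or nuclear neuron list was (Eomes, lower). Their part in the members' differences was not tested.

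The other genes of the system were taken from a list of 34, of which 31 were tested. Without the block 26 had a negative and 5 a positive log2 fold change, and 0 were called. With the block 9 were called lower and 1 higher, where 5.09% and 3.35% of all tested genes were. The list's median log2 fold change was -0.19, against -0.0071 for all tested genes, and the pairs had medians of -0.21, -0.10 and -0.25. Relative to all tested genes the median was -0.18, and it was -0.066 when DMSO replicate 2 was left out. Leaving out replicate 1 of the treated group gave -0.05, and leaving out its replicate 2 gave -0.32.

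The receptors of C1q-like proteins and the latrophilins, adhesion GPCRs that bind teneurins, gave 3 calls of 4 with the block. Adgrb3 (-0.37), Adgrl1 (-0.31) and Adgrl3 (-0.40) were lower, where 5.09% of all tested genes were called lower. Adgrl2 (0.20, edgeR adjusted p = 0.157) was not called. Groups did not overlap for 2 of the 31 tested list genes, Adgrl3 (101 to 141 CPM with DMSO and 80.9 to 95.4 CPM with GSK-126) and the scaffold Apba2 (151 to 180 and 110 to 150 CPM), where 9.44% of all tested genes did not overlap.

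The ligands that neurexins bind across the cleft gave 2 calls of 10 with the block, against 5.09% of all tested genes called lower. Lrrtm3, a leucine-rich repeat protein of the postsynaptic membrane, was lower with the block (-0.65, edgeR adjusted p = 0.000206), and so was Nlgn1, a neuroligin (-0.41, edgeR adjusted p = 0.0492). Of the secreted or cis ligands, Car10, which binds neurexins within the secretory pathway, was lower (-0.39, edgeR adjusted p = 0.00224). The neurexophilin Nxph3 was the gene called higher (0.77, edgeR adjusted p = 0.0492), with 2.88, 9.6 and 5.91 CPM with DMSO and 8.26, 11.7 and 9.75 CPM with GSK-126. Inside the cell, the scaffolds Cask (-0.25), Apba2 (-0.37) and Lin7a (-0.71), which bind neurexin tails or each other, were lower with the block, 3 of 7 on their list. DESeq2 with the block did not call Nxph3 (adjusted p = 0.169), Nlgn1 (adjusted p = 0.19) or Cask (adjusted p = 0.0566).

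None of the C1q-like genes was called. C1ql1 had a blocked log2 fold change of 0.36 (edgeR adjusted p = 0.298) and C1ql3 one of 0.31 (edgeR adjusted p = 0.596). C1ql2 held 7 counts in all, and C1ql4 and Nxph2 held 0. The RNA-binding proteins Khdrbs1, Khdrbs2 and Khdrbs3 regulate the neurexin splicing on which cerebellin binding depends. They had blocked log2 fold changes of -0.029, 0.26 and -0.22, and none was called. Counts per gene do not show which splice form was made. Exons of C1ql3 overlap the antisense gene Gm37811 (154 counts, against 363 for C1ql3) over 1547 of 2535 bases, so its value is uncertain. Exons of Nlgn1, Adgrl1, Adgrl2 and Adgrl3 also overlap antisense genes, whose reads cannot be told apart without strand.

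**Figure D5:**
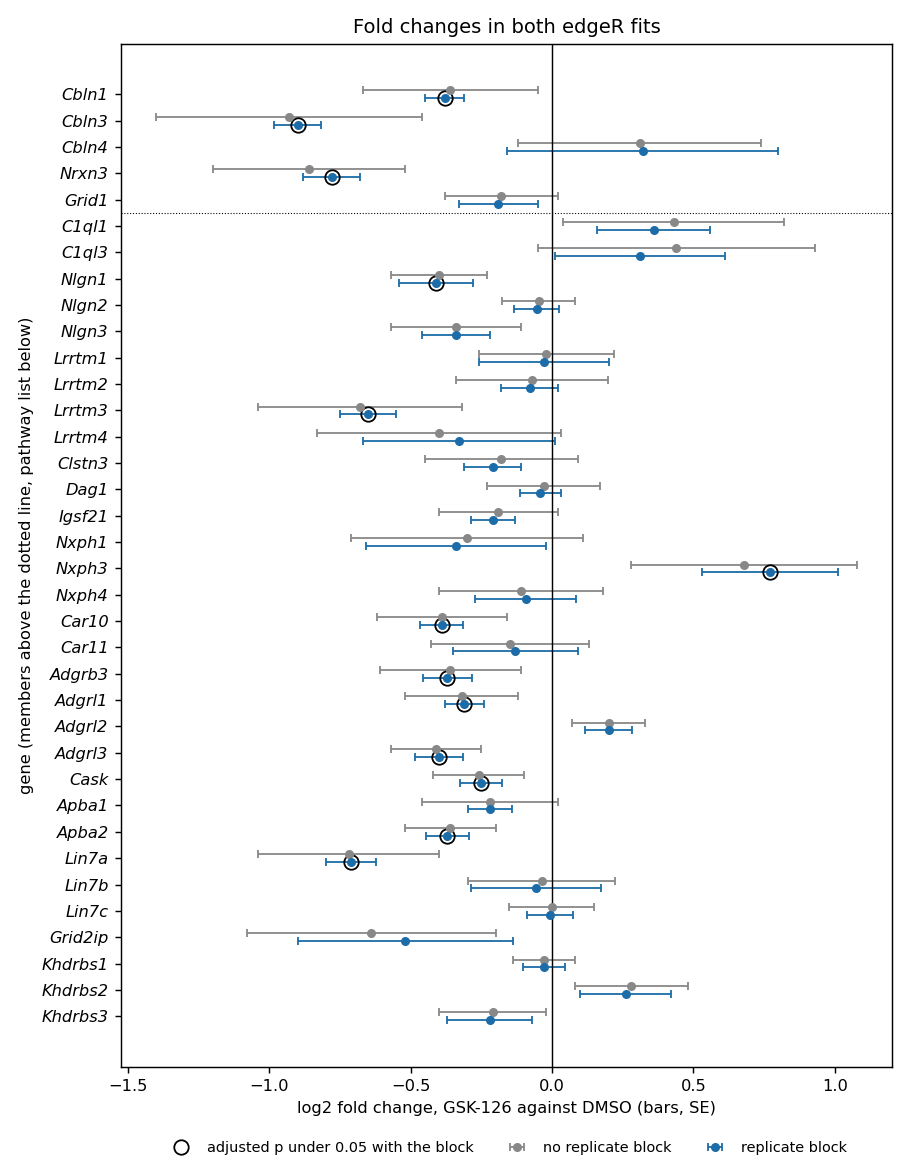
Log2 fold change of GSK-126 against DMSO with its standard error for the 5 tested members (above the dotted line) and the 31 tested genes of the pathway list, from edgeR without the replicate block (grey) and with it (blue). Open rings mark genes with an adjusted p under 0.05 with the block: 3 members and 10 list genes, Nxph3 being the ring to the right of 0.

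Genes most like each tested member were sought by Pearson's r of log2(CPM + 0.5) over the 6 libraries among 11425 genes with a mean of at least 10 CPM. Replicate 2 stands apart in both groups, so r is given as a description. Closest to Cbln1 was Ntm, an adhesion protein of the neurotrimin family (r = 0.9988), and then D230025D16Rik (r = 0.9978). Closest to Cbln3 were Cnnm1 (r = 0.9992) and Astn2, an astrotactin of migrating neurons (r = 0.9974). Closest to Nrxn3 were Tiam1, a Rac exchange factor (r = 0.9985), and Gm44317 (r = 0.9966). For Grid1 they were Sgce (r = 0.9933) and Snw1 (r = 0.9861), and for Cbln4 Mrpl35 (r = 0.9623) and Nfu1 (r = 0.9622). The numbers of genes with an r over 0.9 were 1222 for Cbln1, 1310 for Cbln3 and 1189 for Nrxn3, but 65 for Grid1 and 28 for Cbln4.

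The promoters of a cerebellin that was called and of one that was not are shown side by side, each as the 300 bases around the start given by RefSeq on GRCm38.p6. At its depth Cbln4 cannot be taken as unchanged, and no promoter of Cbln1, the other called cerebellin, was at hand. Whether promoter sequence bears on the calls was not tested. Capitals mark any match on either strand to TATAAA or to the E-boxes CAGATG and CAGCTG or to CAGCAGG. The first is Cbln3 at chr14:55884207-55884506 (minus strand) and the second Cbln4 at chr2:172043417-172043716 (minus strand).
Cbln3: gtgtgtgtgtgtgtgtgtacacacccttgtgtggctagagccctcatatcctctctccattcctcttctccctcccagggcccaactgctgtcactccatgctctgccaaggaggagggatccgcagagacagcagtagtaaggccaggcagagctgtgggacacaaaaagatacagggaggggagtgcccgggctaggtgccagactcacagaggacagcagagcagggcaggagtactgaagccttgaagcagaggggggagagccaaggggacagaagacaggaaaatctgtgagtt
Cbln4: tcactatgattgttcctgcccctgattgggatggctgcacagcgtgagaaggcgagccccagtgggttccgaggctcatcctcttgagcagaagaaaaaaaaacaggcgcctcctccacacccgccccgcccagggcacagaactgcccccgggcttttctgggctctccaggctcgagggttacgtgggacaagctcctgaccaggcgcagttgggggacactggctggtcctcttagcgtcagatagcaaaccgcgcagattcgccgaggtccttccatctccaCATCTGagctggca
Cbln3 holds none of the 4 motifs, and Cbln4 holds 1, a CAGATG read on the other strand. Of 32851 promoters of this length, 13.6% hold TATAAA, 17.2% CAGATG, 16.3% CAGCTG and 10.5% CAGCAGG. The Cbln3 promoter is 57.0% GC with 2 CG dinucleotides and the Cbln4 promoter 60.3% GC with 15, where the median promoter is 52.7% GC with 7. The table also holds 3 starts of Nrxn3, with 2, 6 and 16 CG dinucleotides.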

How the data were processed

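Poly-A RNA of 6 CGN cultures, 3 per group, was sequenced. The authors checked reads with FastQC, trimmed them with Trimmomatic 0.38, aligned them with STAR 2.7.2b to mm10 and counted exon reads per gene with HTSeq. The deposited files hold these raw counts, 1 file per library. The authors used a Gencode annotation of GRCm38.p4, whose release number, like the strand setting, is not given in the sources used here. All 55341 symbols match GENCODE M21, a later GRCm38.p6 release, which gave coordinates and lengths and may differ from the gene models counted.

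Lines that name no gene (58.7% to 60.7% of reads) were left out. Most of these were reads on no counted feature (45.3% to 46.6% of reads), and 9.32% to 10.4% did not align uniquely. Whether the strand setting bears on that share was not tested. Counts were tested in R 4.3.3 with edgeR 4.0.16 (TMM factors, filterByExpr, quasi-likelihood test, Benjamini-Hochberg adjusted p under 0.05 over 16729 genes) without a block. CPM are TMM-scaled. A pairing of the libraries by number is not stated in the sources used here. Deviations from group means correlated at 0.56, 0.63 and 0.49 between same-numbered libraries, and at 0.0064 or less otherwise. Deviations cancel out within a group, so the values for different numbers are not independent of those for the same number. Because same-numbered libraries deviated together, results are also given with replicate as a block where that changes a call. DESeq2 1.42.0, other scalings, filters and left-out libraries were alternatives. No library was a copy of another (chi-square per degree of freedom of at least 9.01). P-values without the block measure the spread between these cultures, and those with the block the spread of differences within numbered pairs.

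Members, gene lists and the rule for naming genes were chosen with earlier results of these data known. All members are named, then pathway genes called with the block, uncalled ones where a family is listed in full, and the 2 genes most like each tested member. Some genes of the pathway list are not reported here.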

Additional observations from a re-analysis of the deposited data

How the results depend on the processing

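Every call of a member came only with the replicate block. With it 851 genes were called lower and 561 higher, against 0 and 0 without it. Leaving out pair 1, 2 or 3 gave 671, 496 or 719 lower and 417, 337 or 558 higher. DESeq2 with the block called 600 lower and 351 higher, and without it 2 and 19, while edgeR with no filter on low counts called 1 lower and 9 higher. Alternatives chosen after seeing the data, the block with upper-quartile factors (698 lower, 727 higher) and with DESeq2 size factors (837 lower, 582 higher), and each fit with the block and a left-out pair, called 3 members lower.

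With the replicate block, Cbln1 was at -0.38, Cbln3 at -0.90 and Nrxn3 at -0.78 on the log2 scale. With DESeq2 and the block these were -0.37, -0.89 and -0.77, with the block and upper-quartile factors -0.35, -0.86 and -0.75, and with the block and DESeq2 size factors -0.38, -0.89 and -0.77. With the block and pair 1, 2 or 3 left out, Cbln1 was at -0.33, -0.44 or -0.36, Cbln3 at -0.92, -0.84 or -0.91 and Nrxn3 at -0.82, -0.56 or -0.93. Cbln4 ranged from -0.016 to 0.70, its sign turning without replicate 2. Without the block, leaving out 1 library gave -0.70 to -0.071 for Cbln1, -1.45 to -0.30 for Cbln3, -1.06 to -0.35 for Nrxn3, -0.31 to -0.039 for Grid1 and 0.097 to 0.54 for Cbln4, with 0 members called. The smallest effects for Cbln1, Cbln3 and Nrxn3 came without DMSO replicate 2. In the pathway list 9 genes were lower and 1 higher with the block, and the list's median relative to all tested genes ranged from -0.32 to -0.05 with 1 library left out. The Cbln3 to Cbln1 ratio ranged from -0.62 to -0.29 and the Cbln4 to Cbln1 ratio from 0.22 to 1.00. The planned ratios Cbln2 to Cbln1 and Nrxn3 to Nrxn2 could not be given because of libraries at 0. Depth limits Cbln4 and Cbln2, and 3 cultures per group limit all tests.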
